A study of Mus musculus with 8 samples.

Results

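Vitamin D metabolism and renal calcium handling were followed here through 10 of the 32285 genes listed in a single-nucleus RNA-seq data set of the mouse kidney. The 10 genes were chosen by symbol: Cyp24a1, Cyp27b1, Vdr, Lrp2, Cubn, Casr, Trpv5, Calb1, Slc8a1 and Atp2b1. All 10 were matched, each to 1 row of the table. Nuclei came from the kidneys of 8 male C57BL/6J mice, 2 in each of 4 groups, with 1 library for each mouse. The cKOt mice (Bmal1lox/lox/Pax8-rtTA/LC-1) carried floxed Bmal1, the clock gene also called Arntl, with the Pax8-rtTA and LC-1 transgenes. Through these, doxycycline induces Cre, which deletes Bmal1 in the renal tubules. The Ctrl mice were Bmal1lox/lox littermates, which carried the floxed alleles and received doxycycline too. Doxycycline was given at 2 mg/ml for 2 weeks from 8 weeks of age, and kidneys were taken at 14 weeks under a cycle of 12 h light and 12 h dark. Mice of each genotype were killed at ZT4, in the light phase, or at ZT16, in the dark phase (ZT counts hours from lights on). The comparisons asked whether these genes differed between the time points, between the genotypes, or in their time difference between the genotypes.

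The kidney is the main site where vitamin D is activated. Proximal tubule cells take up the filtered hormone precursor, bound to its carrier protein, through megalin (Lrp2) and cubilin (Cubn), the pair of large endocytic receptors of the brush border. The enzyme 1-alpha-hydroxylase (Cyp27b1) then makes the active hormone, 24-hydroxylase (Cyp24a1) inactivates it, and the vitamin D receptor (Vdr) carries its signal to the genome. In the thick ascending limb the calcium-sensing receptor (Casr) reads the blood calcium level. In the late distal convoluted and connecting tubules calcium enters through the channel Trpv5, is ferried by calbindin-D28k (Calb1), and leaves through the sodium-calcium exchanger Slc8a1 and the calcium pump Atp2b1.

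The libraries held 36548873 to 54500820 UMIs (unique molecular identifiers, which count RNA molecules) in 8758 to 10975 nuclei, 81391 nuclei in all. Replicates differed beyond sampling noise in all 4 groups. Of 80565 barcode sequences, 823 (1.02%) occurred in at least 2 libraries. Nuclei were clustered without the 10 genes and named from marker genes, and 93.1% were named. Each class stands for nuclei alike to that cell type: PCT and PST for the proximal convoluted and straight tubule (PST-A without and PST-B with Cyp7b1 among its markers), TAL for the thick ascending limb, MD for the macula densa, DCT1 and DCT2 for the early and late distal convoluted tubule, CNT for the connecting tubule, aIC and bIC for intercalated cells, Vasc for vessels, Mes/Per for mesangial cells and pericytes, SMC/JGC for smooth muscle and juxtaglomerular cells, Podo for podocytes, and Myel, BC and TC/NK for immune cells. Cluster 39, of 851 nuclei, carried only the distal convoluted markers Slc12a3 and Trpm6 and stays unnamed, but was kept as a group of its own. Arntl had 32.3 and 27.8 CPM (UMIs of a gene scaled to 1000000 UMIs) in the whole-kidney sums of Ctrl at ZT4, 133 and 133 in Ctrl at ZT16, 238 and 165 in cKOt at ZT4 and 242 and 213 in cKOt at ZT16. These counts are not limited to the deleted part of the gene, so they check nothing about the deletion.

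Because BMAL1 is known to act on E-boxes of the letters CACGTG, the start regions of the genes were read from RefSeq (GRCm38.p6). Windows from 250 bases before to 50 bases after the start were found for 8 of the 10 genes, 9 windows in all, and not for Cyp24a1 and Calb1. On either strand, the E-box stood in 1 of the 9 windows, that of Atp2b1, against 7.15% of 32851 promoters. The GC box GGGCGG, read the same way, stood in 4 of the 9, those of Lrp2, Vdr and both windows of Atp2b1, against 35.7% of all promoters. Printed here are the stretch of Atp2b1 with the only E-box, at chr10:98914638-98914667 on the plus strand, and the 250 bases before the starts of Vdr, chr15:97908297-97908546, and of Cubn, chr2:13491877-13492126, both on the minus strand. Vdr and Cubn are shown because they were the 2 genes called in whole-kidney sums. Capitals mark the E-box in Atp2b1 and the 3 GC boxes in Vdr, and neither motif is in the Cubn stretch.
Atp2b1: cgcgggccgcgtCACGTGaccgcgcccagc
Vdr: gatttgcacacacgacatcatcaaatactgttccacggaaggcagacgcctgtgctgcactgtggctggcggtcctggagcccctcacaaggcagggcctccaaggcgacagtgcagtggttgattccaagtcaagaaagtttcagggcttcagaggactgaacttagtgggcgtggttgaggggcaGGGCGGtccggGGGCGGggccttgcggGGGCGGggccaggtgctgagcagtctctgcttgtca
Cubn: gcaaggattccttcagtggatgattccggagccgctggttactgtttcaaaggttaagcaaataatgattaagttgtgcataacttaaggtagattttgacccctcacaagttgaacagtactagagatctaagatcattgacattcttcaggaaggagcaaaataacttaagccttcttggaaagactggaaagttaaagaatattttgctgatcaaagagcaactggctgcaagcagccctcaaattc

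Along the nephron 4 of the 10 genes were highest in proximal classes, Casr in TAL, 4 in the late distal convoluted tubule or cluster 39, and Atp2b1 in Myel. Levels are given as CPM, the UMIs of a gene divided by all UMIs of that class and library and scaled to 1000000, as mean ± SD over the 8 libraries. They describe the classes and carry no test, since the classes were made from the same nuclei.

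The endocytic receptors belonged to the proximal tubule. Lrp2 had 2417 ± 621 CPM in PCT, 2380 ± 660.0 in PST-A and 1841 ± 571 in PST-B, and the other classes lay at or under 424. Cubn had 691 ± 206 CPM in PST-B, 579 ± 226 in PCT and 502 ± 243 in PST-A, and the other classes lay at or under 96.5. Among the 3 proximal classes neither receptor differed beyond the spread between libraries. The next class in the order, Myel, did not overlap with them in any library. PCT, PST-A and PST-B together made up 32.0% of nuclei and held 87.6% of Lrp2 UMIs and 88.6% of Cubn UMIs. Of the 12968 protein-coding genes with at least 10 CPM in some class, the one closest to both receptors over the 22 named classes was A1cf (Pearson r = 0.99 with each, on log2(CPM + 1)), followed by Slc22a28 for Lrp2 and Hgd for Cubn (r = 0.99 for each). The classes of a library share its depth and free RNA, so these correlations are descriptions.

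The enzymes of the hormone were low, and most of their UMIs lay in proximal nuclei. Cyp24a1 had 149.5 ± 84.6 CPM in PCT and 34.0 ± 30.3 in PST-A, and every other class lay at or under 25.3. The 3 proximal classes held 86.7% of its 16682 UMIs, 72.0% in PCT and 13.5% in PST-A. PST-B, with 6.2 ± 5.3 CPM, held only 1.14% of them in 4.49% of nuclei. From PST-A downward, no class differed from its neighbour in the order beyond the spread between libraries. The genes closest to Cyp24a1 over the named classes were Slc16a14 and Slc2a2, a glucose transporter (r = 0.93 for each). Cyp27b1 gave only 208 UMIs in all 8 libraries, 154 of them in PCT, where its mean was 1.93 ± 2.61 CPM. Of these 154, 91 came from Ctrl ZT16 replicate 1 (8.11 CPM, against 0.229 to 2.76 in the other 7 libraries), and without it the named class with the highest mean was BC. However, BC held only 0.481% of the 208 UMIs and stood at 1.38 ± 3.90 CPM, with an SD above its mean. No UMI was found in 11 of the 23 classes, where a count of 0 over the 8 libraries allows up to 3 UMIs in each class (counting error only). Cyp2d26 and Prodh2 (r = 0.89 for each) were closest to it.

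The receptor of the hormone had a pattern of its own, with a distal and a proximal part. Vdr stood at 955 ± 130 CPM in DCT2 and 778 ± 100.0 in cluster 39. DCT1, CNT, PST-A, PCT and PST-B followed between 239 and 321 CPM, with no neighbours among them that differed beyond their spread. The next class, bIC, had 142 ± 25.4 CPM, below every library of PST-B. DCT2, CNT and cluster 39 made up 4.97% of nuclei and held 15.0% of Vdr UMIs, while the 3 proximal classes held 64.9%. Its closest genes were Ush1c (r = 0.91) and Kl (r = 0.88), which encodes klotho, the co-receptor for the phosphate hormone FGF23.

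Casr was a gene of the TAL, where it stood at 477 ± 56.3 CPM and where 72.0% of its UMIs were found in 12.6% of nuclei. The TAL libraries did not overlap with those of MD, the next class. MD, with 289 ± 59.0 CPM, and bIC, with 279 ± 98.6, did not differ beyond their spread. DCT1, DCT2 and CNT lay between 94.7 and 121 CPM, and PCT had 4.07 ± 0.951. TAL nuclei fell into 2 clusters, with 257 ± 44.8 CPM in one and 796 ± 90.5 in the other. The genes closest to Casr were Tmem72 (r = 0.93) and Slit2 (r = 0.92).

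The transport genes for calcium lay mostly in few distal nuclei: DCT2, CNT and cluster 39, 4.97% of all nuclei, held 83.7% of Trpv5 UMIs, 77.1% of Slc8a1 UMIs and 67.9% of Calb1 UMIs. Trpv5 had 178.5 ± 43.8 CPM in DCT2, 125 ± 16.6 in cluster 39 and 121 ± 18.2 in CNT, and every other class lay at or under 3.74. The CNT mean joins unlike clusters. Over the libraries, Trpv5 had 0.0 to 65.6 CPM in CNT clusters 12, 49 and 51 and 122 to 344 in clusters 46, 47, 48 and 50. Vdr had 30.8 to 187 CPM in the former and 146 to 885 in the latter. DCT1, the neighbour of DCT2, had 1.03 ± 0.802 CPM of Trpv5. Slc8a1 had 84950 ± 15520 CPM in DCT2 and 74420 ± 11020 in cluster 39, which did not differ beyond their spread, then 21770 ± 7545 in CNT and 7296 ± 1971 in DCT1. Calb1 was highest in cluster 39 at 2969 ± 805 CPM, followed by DCT2 at 1730 ± 641, CNT at 662 ± 224 and DCT1 at 439 ± 154. Its closest gene was Atp2b2 (r = 0.92), another plasma membrane calcium pump, followed by Adamts16 (r = 0.91). Egfem1 (r = 0.95) and Tmem132c (r = 0.87) were closest to Trpv5, and Adamts3 (r = 0.88) and Tsc22d1 (r = 0.84) to Slc8a1.

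Atp2b1 was the exception. It was highest in Myel at 657 ± 59.5 CPM and TC/NK at 583 ± 127, and it had 179 ± 46.0 CPM in PCT, 155 ± 27.9 in DCT2 and 152 ± 18.3 in CNT. DCT2, CNT and cluster 39 held 4.93% of its UMIs, close to their 4.97% share of nuclei. Its closest genes were Dhx15 (r = 0.89) and Nptn (r = 0.88). Among the 22 named classes, which leave out cluster 39 and put Calb1 highest in DCT2, the class with the highest level was the same for all 10 genes when nuclei were compared by the share with a UMI at 1000 UMIs each.

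**Figure D1:**
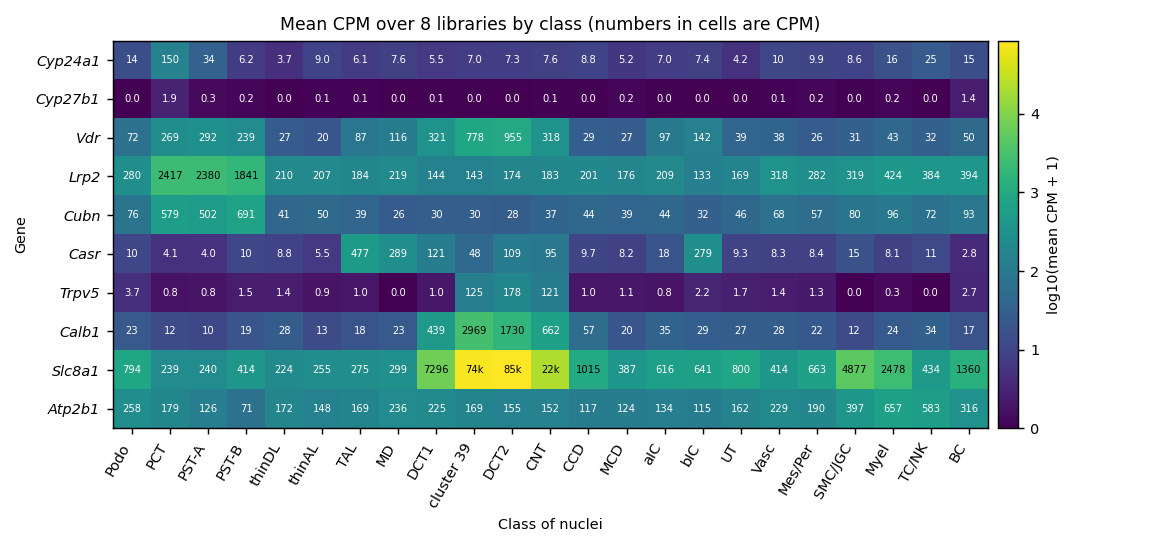
Mean level of each gene (rows) in each class (columns) as CPM over the 8 libraries, with colour on the scale log10(mean CPM + 1) and the CPM printed in each cell (k for units of 1000). Lrp2 and Cubn fill the proximal columns, Cyp24a1 is highest in PCT and PST-A, Casr the TAL column, Trpv5, Slc8a1 and Calb1 the columns of DCT2, cluster 39 and CNT, and Atp2b1 is spread over all columns.

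For the comparisons, UMIs were summed for each library, over the whole kidney and within each of 23 classes, and tested with edgeR's quasi-likelihood test. Fold changes are log2 values ± SE. For edgeR this SE was worked back from the test, as the size of the log2 value over the square root of its F statistic. For DESeq2, a second tool, it is the SE that the fit reports. A change was called at an adjusted p (Benjamini-Hochberg, over all protein-coding genes tested in that class and comparison) under 0.05. Where a call is said to be lost without a library, the adjusted p given is the highest over all alternative settings run. With 2 mice in each group, p-values rest on the spread between these libraries. The comparisons share libraries, so their values stand side by side and are not independent. In whole-kidney sums, fewer cells of a type and less RNA in each cell cannot be told apart; DCT2 with CNT made up 3.27% to 4.46%.

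In whole-kidney sums 2 of the 70 tests of the 10 genes were called. Cubn had 369 and 518 CPM in Ctrl at ZT4, 195 and 153 in Ctrl at ZT16, 282 and 314 in cKOt at ZT4, and 268 and 286 in cKOt at ZT16. It fell by 1.37 ± 0.18 from ZT4 to ZT16 in Ctrl (adjusted p = 0.0358), where 0.142% of all genes tested were called. Vdr had 178 and 162 CPM in Ctrl at ZT4, 182 and 169 in Ctrl at ZT16, 246 and 252 in cKOt at ZT4, and 194 and 198 in cKOt at ZT16. All 4 cKOt libraries lay above all 4 Ctrl libraries, a difference of 0.42 ± 0.076 over both time points (adjusted p = 0.0474), where 0.949% of all genes were called. The proximal classes, which hold 64.9% of Vdr UMIs, made up 33.7%, 29.7%, 29.2% and 26.8% of nuclei in the Ctrl libraries and 35.9%, 32.0%, 38.4% and 31.7% in the cKOt libraries; the part of these shares in the call was not tested. The call of Vdr was lost without any 1 of the 8 libraries, and that of Cubn without any of 7, all but Ctrl ZT4 replicate 1. The call of Vdr was also lost without TMM scaling and that of Cubn with only the 2 groups compared. Over all settings the log2 values lay between 0.38 and 0.45 and between -1.59 and -1.10. None of the 10 genes was called by edgeR between time points in cKOt, where 5 had an unadjusted p under 0.05 and DESeq2 called 1, Cyp24a1. The other 4 comparisons gave 0 calls as well. At ZT4, 2 genes had an unadjusted p under 0.05 between genotypes and DESeq2 called 1, and at ZT16 these counts were 4 and 2. Between time points over both genotypes they were 4 and 1, and for the interaction 3 and 1. Over all genes, 0.0% were called by edgeR between time points in cKOt, 0.446% between genotypes at ZT4, 0.174% at ZT16, 0.545% between time points over both genotypes and 0.0184% in the interaction.

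Within the 23 classes 1140 tests could be made, and 27 were called, 10 rises and 17 falls. They came from Cubn (11 calls in 7 classes), Calb1 (9 in 3 classes), Slc8a1 (5 in 4 classes) and Vdr (2 in 2 classes). Cyp24a1, Cyp27b1, Lrp2, Casr, Trpv5 and Atp2b1 had none by edgeR. DESeq2 called 6 tests of Cyp24a1 and 1 of Cyp27b1 and none of the other 4. Over all genes in these classes DESeq2 called 932 of 210949 tests between time points in Ctrl and 478 of 207694 in cKOt. Between genotypes it called 862 of 205276 at ZT4 and 596 of 212367 at ZT16. Of 221217 tests each, it called 1856 between time points over both genotypes, 1469 between genotypes over both time points and 120 in the interaction. Between time points in Ctrl 6 of 162 tests of the 10 genes were called, all falls of Cubn, while 0.336% of all tests in the 23 classes were. Between time points in cKOt 3 of 160 were called, against 0.134%, and between genotypes at ZT4 4 of 159, against 0.295%. Between genotypes at ZT16 edgeR called 0 of 161, against 0.17% over all genes. Of the 161, 41 had an unadjusted p under 0.05, and DESeq2 called 1. Here and elsewhere, counts at an unadjusted p have no share over all genes beside them, so they are not read as an excess. Over both genotypes 11 of 166 tests were called between time points, against 0.856%, over both time points 2 of 166 between genotypes, against 0.601%, and in the interaction 1 of 166, against 0.0267%. The calls of Cubn in several classes are of 1 gene, so these counts are not counts of independent events.

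**Figure D2:**
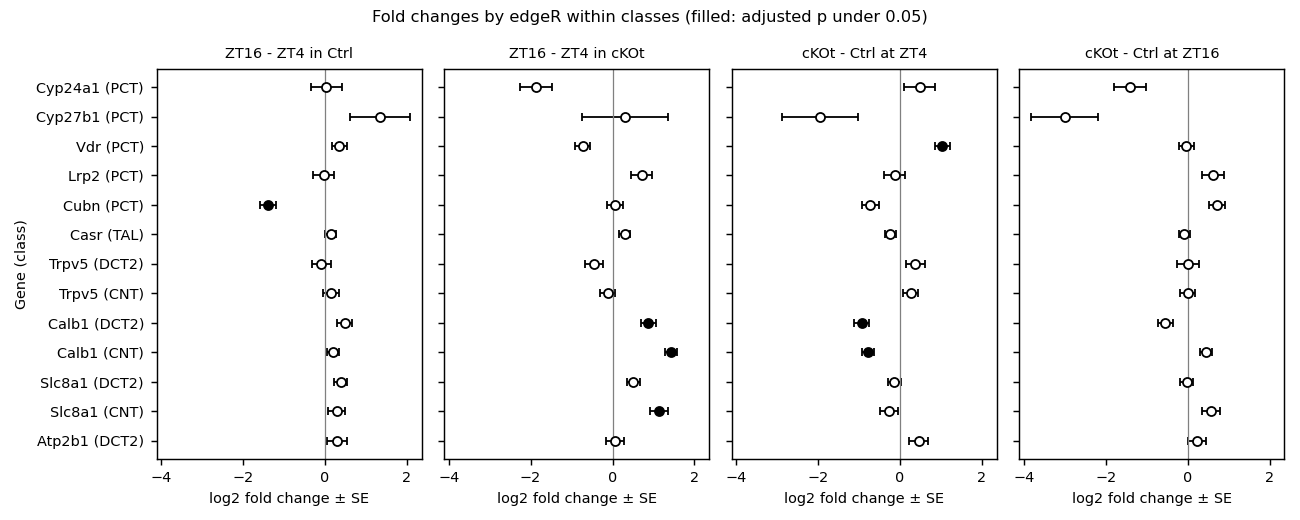
Log2 fold changes of the 10 genes in the classes shown, for the comparisons of single groups, with bars for ± 1 SE and filled symbols for an adjusted p under 0.05. Cubn in PCT lies at -1.39 for time in Ctrl, Vdr in PCT at 1.03 for genotype at ZT4, and Calb1 in CNT at 1.42 for time in cKOt.

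Cubn, the receptor that binds ligands on the brush border and is internalised with megalin, fell at ZT16 in Ctrl mice. In PCT it had 746 and 1033 CPM in Ctrl at ZT4, 356 and 327 in Ctrl at ZT16, 514 and 559 in cKOt at ZT4, and 508 and 592 in cKOt at ZT16. The Ctrl groups did not overlap, and both cKOt groups lay between them. The fall in Ctrl was 1.39 ± 0.20 on the log2 scale, 2.62-fold (adjusted p = 0.0216; 0.573% of genes were called in PCT). In cKOt the difference was 0.06 ± 0.20 (adjusted p = 0.976). The difference between the genotypes' time differences, 1.44 ± 0.28, was not called by edgeR (adjusted p = 0.288), while DESeq2 called it at 1.44 ± 0.30 (adjusted p = 0.00179). The call in PCT was lost without Ctrl ZT16 replicate 1, Ctrl ZT16 replicate 2 or Ctrl ZT4 replicate 2; over all settings the log2 value lay between -1.62 and -1.10 and the adjusted p reached 0.14.

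PST-A had 650 and 1016 CPM of Cubn in Ctrl at ZT4 and 316 and 238 at ZT16, a log2 difference of -1.62 ± 0.28 that edgeR did not call (adjusted p = 0.061) and DESeq2 did (-1.62 ± 0.27, adjusted p = 1.98e-06). PST-B had 731 and 1154 CPM in Ctrl at ZT4 and 574 and 540 at ZT16, a log2 difference of -0.79 ± 0.27 (adjusted p = 0.619). Nuclei of the proximal classes were spread unevenly over clusters: cluster 3 held 294 of 1884 and 33 of 1464 PCT nuclei in the Ctrl libraries at ZT4, 155 of 1704 and 752 of 1366 in those at ZT16, 1562 of 2019 and 388 of 1839 in cKOt at ZT4, and 1361 of 1875 and 1550 of 2013 in cKOt at ZT16. The share thus differed between the 2 libraries of a group as well as between groups. Within each of the 3 PCT clusters the Ctrl libraries at ZT16 lay below those at ZT4. For PST-A, cluster 10 held 84.8% and 91.8% of nuclei in the 2 Ctrl groups, and cluster 4 held 99.1% and 99.8% in the 2 cKOt groups.

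Cubn also fell at ZT16 in Ctrl in classes that held little of it. TAL had 42.7 and 66.4 CPM in Ctrl at ZT4 and 25.0 and 21.1 at ZT16, a fall of 1.27 ± 0.20 on the log2 scale (adjusted p = 0.00493; 1.18% of genes were called in TAL). In Vasc it fell by 1.22 ± 0.22 (adjusted p = 0.0247), in CNT by 1.59 ± 0.31 (adjusted p = 0.0149; 0.377% of genes called), in Mes/Per by 1.26 ± 0.20 (adjusted p = 0.0403) and in Myel by 1.80 ± 0.35 (adjusted p = 0.033). Over both genotypes it fell in CNT, Mes/Per, TAL and Vasc by 0.66 to 0.83, where 3.56% of genes in TAL and 1.12% in CNT were called. In the proximal classes this difference was -0.67 ± 0.14 in PCT and -0.91 ± 0.19 in PST-A. By edgeR neither was called (adjusted p = 0.0549 and 0.0917), and by DESeq2 both were (adjusted p = 0.000904 and 0.000396). For each 100 UMIs of Lrp2, PCT held 40.5 of Cubn in Ctrl and 27.7 in cKOt at ZT4, and 16.7 in Ctrl and 16.8 in cKOt at ZT16. In Vasc these ratios were 34.8 and 26.2 at ZT4 and 16.0 and 15.3 at ZT16, and in TAL 37.0 and 25.9, then 16.0 and 15.6. These are means of 2 libraries; single libraries of neighbouring groups overlapped, as in PCT, with 31.9 and 49.0 in Ctrl and 21.6 and 33.7 in cKOt at ZT4. In aIC the means were 45.7 in Ctrl and 13.6 in cKOt at ZT4, and 21.4 and 13.9 at ZT16. The part of free RNA from the proximal tubule in the calls of the other classes was not tested. In aIC, Cubn stood at 63.9 and 80.2 CPM in Ctrl and 29.2 and 23.2 in cKOt at ZT4, and fell by 1.49 ± 0.37 (adjusted p = 0.04995), a call that 12 of 16 other settings lost. Several of these calls were lost in other settings. DESeq2 did not make those in CNT and Myel, that in Mes/Per was lost without doublets and with only the 2 groups compared, and that in Myel was lost in 9 of 16 settings, all genes in 1 fit, 50 principal components and the fit without doublets among them. The call in TAL was lost without Ctrl ZT4 replicate 2 (adjusted p up to 0.0858), and those in Vasc and CNT without Ctrl ZT4 replicate 2 or either Ctrl ZT16 library (up to 0.247 and 0.379). In Mes/Per and Myel they were lost without the same 3 libraries and without cKOt ZT16 replicate 1, and in Mes/Per also without cKOt ZT16 replicate 2 (up to 0.388 and 0.884). Over both genotypes the call in TAL was lost without Ctrl ZT4 replicate 2 or cKOt ZT16 replicate 1 (up to 0.0808), that in Vasc without any library but Ctrl ZT4 replicate 1 and cKOt ZT4 replicate 2 (up to 0.204), and those in CNT and Mes/Per without any but Ctrl ZT4 replicate 1 (up to 0.298 and 0.268). With clusters from 50 principal components the calls over both genotypes in CNT, Mes/Per and Vasc were lost too, DESeq2 did not make that in CNT, and that in Mes/Per was lost without doublets, without TMM scaling and with all genes in 1 fit.

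Lrp2, the larger of the pair and the one with the signals for uptake into the cell, was not called by edgeR or DESeq2 in any of its 161 tests within classes, of which 37 had an unadjusted p under 0.05 by edgeR. In whole-kidney sums DESeq2 called it between genotypes at ZT16 (0.86 ± 0.25, adjusted p = 0.0438). In PCT it had 2334 and 2108 CPM in Ctrl at ZT4, 1713 and 2602 in Ctrl at ZT16, 2378 and 1657 in cKOt at ZT4, and 3361 and 3187 in cKOt at ZT16. Both cKOt libraries at ZT16 lay above the other 6. Against cKOt at ZT4 the log2 difference was 0.71 ± 0.26 (adjusted p = 0.493) and against Ctrl at ZT16 0.62 ± 0.26 (adjusted p = 0.791). PST-A had 3418 and 3056 CPM and PST-B 2783 and 2284 in cKOt at ZT16, again above the other 6 libraries. Of the partners of the receptors, Dab2, the adaptor of megalin, had 3318 to 5148 CPM in the 6 other PCT libraries and 6551 and 6404 in cKOt at ZT16, with a log2 difference between genotypes at ZT16 of 0.63 ± 0.25 (adjusted p = 0.757). Amn, the membrane anchor of cubilin, had 55.1 to 95.9 CPM in PCT and no call there.

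**Figure D3:**
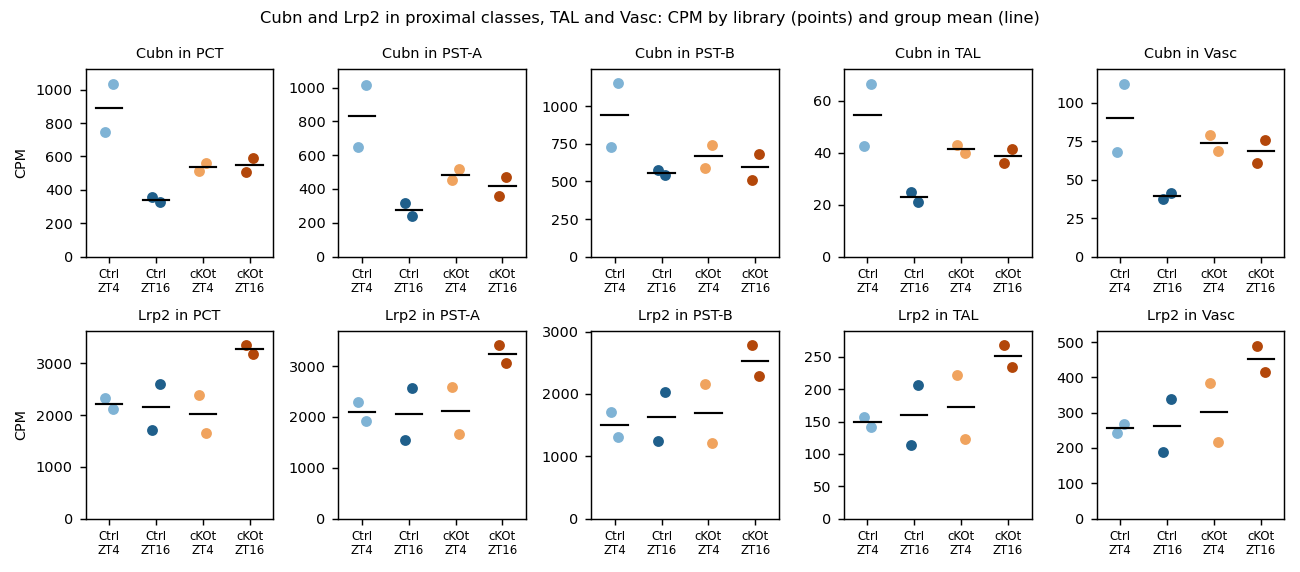
CPM of Cubn (top) and Lrp2 (bottom) in PCT, PST-A, PST-B, TAL and Vasc, with a point for each library and a line for the mean of each group. Cubn in Ctrl is lower at ZT16 than at ZT4 in all 5 classes, and Lrp2 in PCT is highest in the 2 cKOt libraries at ZT16, at 3361 and 3187 CPM.

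Vdr was higher in the PCT of cKOt than of Ctrl mice at ZT4. It had 184 and 206 CPM in Ctrl at ZT4, 221 and 274 in Ctrl at ZT16, 433 and 359.9 in cKOt at ZT4, and 253 and 221 in cKOt at ZT16. The 2 cKOt libraries at ZT4 lay above the other 6. The difference between genotypes at ZT4 was 1.03 ± 0.19, 2.04-fold (adjusted p = 0.0394; 0.802% of genes were called in PCT), and within each of the 3 PCT clusters the cKOt libraries were above the Ctrl libraries. At ZT16 it was -0.04 ± 0.18 (adjusted p = 0.9995). The interaction was -1.07 ± 0.26 and was not called (adjusted p = 0.572). Among the losses of the call at ZT4 were the fit of only the 2 groups compared and those without Ctrl ZT4 replicate 1 or 2, cKOt ZT4 replicate 1, or cKOt ZT16 replicate 1 or 2; over all settings the log2 value lay between 0.87 and 1.16 and the adjusted p reached 0.259. In the distal classes with the highest levels, DCT2, cluster 39, DCT1 and CNT in that order, Vdr was not called. Vdr had 797 to 1138 CPM over the 8 libraries in DCT2 and 151 to 478 in CNT. In TAL it fell at ZT16 over both genotypes by 0.45 ± 0.11 (adjusted p = 0.0309), from 89.5 to 121 CPM in the 4 ZT4 libraries to 65.6 to 79.7 in the 4 ZT16 libraries. This call was lost without Ctrl ZT4 replicate 1, Ctrl ZT16 replicate 1, cKOt ZT4 replicate 2 or either cKOt ZT16 library, and with clusters from 50 principal components, with adjusted p up to 0.156.

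Cyp24a1 differed widely between the cKOt libraries. In PCT it had 175 and 141 CPM in Ctrl at ZT4, 155 and 168 in Ctrl at ZT16, 113 and 326 in cKOt at ZT4, and 52.5 and 65.9 in cKOt at ZT16. Both cKOt libraries at ZT16 lay below the other 6, and cKOt ZT4 replicate 2 was the highest of all 8. The time difference in cKOt was -1.87 ± 0.39, not called by edgeR (unadjusted p = 0.00079, adjusted p = 0.187), while DESeq2 called it (-1.87 ± 0.34, adjusted p = 3.84e-05). By edgeR it was -0.91 ± 0.21 without cKOt ZT4 replicate 2 (adjusted p = 0.336) and -2.44 ± 0.20 without cKOt ZT4 replicate 1 (adjusted p = 0.0062). Between genotypes at ZT16 it was -1.42 ± 0.39 (adjusted p = 0.366 by edgeR and 0.00677 by DESeq2). With only the 2 groups compared, edgeR did call this difference, at -1.43 ± 0.17 (adjusted p = 0.0175). It also did so without a filter on low counts, at -1.40 ± 0.27 (adjusted p = 0.00311). It made no call with all genes in 1 fit, clusters from 50 principal components, no TMM scaling, a replicate block or no doublets (adjusted p from 0.233 to 0.3425). Without any 1 library the log2 value of this difference lay between -1.62 and -1.24. Of 77 tests in 12 classes 33 had an unadjusted p under 0.05. These tests are of 1 gene in the same libraries, so they are not independent. The part of free RNA from the proximal tubule in the other classes was not tested. Within PCT cluster 7, Ctrl libraries held 111 to 134 CPM, and the cKOt libraries held 10.8 and 286 at ZT4 and 3.36 and 9.56 at ZT16. Cluster 3 had 93.7 to 252.5 CPM in Ctrl, 151 and 405 in cKOt at ZT4, and 69.7 and 82.2 in cKOt at ZT16. In cluster 5 the values were 146 to 204.5, then 90.9 and 329, then 125 and 93.8 CPM. Of the PCT nuclei of cKOt at ZT16, cluster 3 held 74.9%, cluster 5 6.51% and cluster 7 18.6%. PST-A had 25.8 to 59.4 CPM in the Ctrl libraries, 6.62 and 90.6 in cKOt at ZT4, and 2.96 and 8.45 in cKOt at ZT16. Vasc had 9.13 to 11.9 CPM in Ctrl and 7.83, 25.4, 1.21 and 3.65 in cKOt, in the same order of libraries.

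Cyp27b1, the activating enzyme, could be tested within PCT only. The libraries held 22 and 9 of its UMIs in Ctrl at ZT4, 91 and 8 in Ctrl at ZT16, 8 and 3 in cKOt at ZT4, and 8 and 5 in cKOt at ZT16. Ctrl ZT16 replicate 1 alone held 91 of the 154 UMIs. Scaled to depth, the Ctrl libraries had 2.76, 1.10, 8.11 and 1.29 CPM and the cKOt libraries 0.791, 0.229, 0.668 and 0.504, so the genotypes did not overlap. The difference over both time points, -2.48 ± 0.62, was not called by edgeR (adjusted p = 0.119) and was called by DESeq2 at -2.45 ± 0.62 (adjusted p = 0.00562). With the replicate number in the model, which was not taken to pair the libraries, edgeR called it at -2.36 ± 0.40 (adjusted p = 0.0379). It did so too without a filter on low counts, at -2.46 ± 0.46 (adjusted p = 0.000961). It made no call with all genes in 1 fit (adjusted p = 0.111) or with clusters from 50 principal components (0.121). Nor did it without TMM scaling (0.115) or without doublets (0.115). By edgeR the difference was -1.54 ± 0.55 without Ctrl ZT16 replicate 1 and -2.82 ± 0.45 without Ctrl ZT16 replicate 2. Without any 1 of the other libraries it lay between -3.01 and -2.09.

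**Figure D4:**
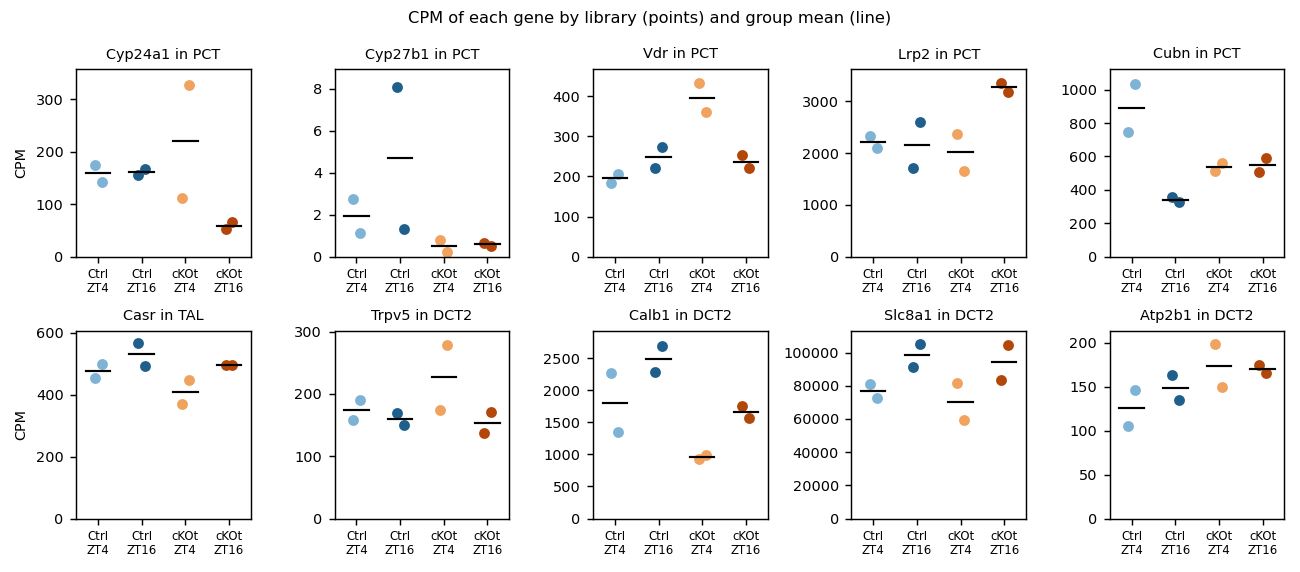
CPM of the 10 genes in 1 class each, PCT for the proximal genes, TAL for Casr and DCT2 for the others, with a point for each library and a line for the mean of each group. Vdr in PCT is highest in the 2 cKOt libraries at ZT4, and Cyp27b1 in PCT has 1 high library, in Ctrl at ZT16, at 8.11 CPM.

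Of the other 11 genes of vitamin D metabolism and signalling (Cyp2r1, Cyp27a1, Gc, Rxra, Rxrb, Dab2, Amn, Lrpap1, Pth1r, Kl and Fgfr1), 14 of 1272 tests within classes were called, 11 rises and 3 falls, with a median log2 difference of 0.02. They were 3 of 182 tests between time points in Ctrl and 2 of 177 in cKOt, 0 of 174 between genotypes at ZT4 (15 at an unadjusted p under 0.05; 0 by DESeq2) and 2 of 181 at ZT16, 4 of 186 between time points over both genotypes, 3 of 186 between genotypes over both time points and 0 of 186 in the interaction (12 at an unadjusted p under 0.05; 0 by DESeq2). Over all genes the shares called in the 23 classes were, in the same order, 0.336%, 0.134%, 0.295%, 0.17%, 0.856%, 0.601% and 0.0267%. None of their 77 tests in whole-kidney sums was called by edgeR; 4 had an unadjusted p under 0.05, and DESeq2 called 2. Kl, the co-receptor klotho, rose at ZT16 in both genotypes. In DCT2 it had 1289 and 1273 CPM in Ctrl at ZT4, 3031 and 2523 in Ctrl at ZT16, 1374 and 1378 in cKOt at ZT4, and 2362 and 1999 in cKOt at ZT16. The rise was 1.14 ± 0.16 in Ctrl (adjusted p = 6.97e-05) and 0.75 ± 0.16 in cKOt (adjusted p = 0.0266), and in CNT it was 0.83 ± 0.16 in Ctrl (adjusted p = 0.0157) and 0.84 ± 0.16 in cKOt (adjusted p = 0.0157). In DCT2 the call in Ctrl was kept in all 16 other settings, and that in cKOt was lost without any of the 4 cKOt libraries and with only the 2 groups compared (up to 0.374). In CNT the call in Ctrl was lost without Ctrl ZT4 replicate 2 or Ctrl ZT16 replicate 1 and with only the 2 groups compared (up to 0.307), and that in cKOt without cKOt ZT4 replicate 2 or cKOt ZT16 replicate 1 (up to 0.337). Pth1r, the receptor for parathyroid hormone, rose in DCT2 of Ctrl by 1.14 ± 0.22 (adjusted p = 0.00496), a call lost without Ctrl ZT4 replicate 2 or Ctrl ZT16 replicate 1 (up to 0.267), and over both genotypes by 0.90 ± 0.15 (adjusted p = 0.000842), a call kept in all 15 other settings. It fell in aIC of cKOt over both time points by 1.10 ± 0.27 (adjusted p = 0.0409), a call lost in 10 of 15 other settings, DESeq2 and the fits without any library but Ctrl ZT4 replicate 1 among them (adjusted p up to 0.764). Cyp27a1, a mitochondrial enzyme able to make the hormone precursor, had 27.2, 38.8, 44.4 and 29.8 CPM in the Ctrl libraries of PST-B and 14.9, 14.3, 13.2 and 7.42 in the cKOt libraries. It fell there by 1.47 ± 0.21 over both time points (adjusted p = 0.00607), and the genotypes did not overlap. Dab2 rose in bIC of cKOt at ZT16 by 1.21 ± 0.20 (adjusted p = 0.00467), a call lost without either Ctrl ZT16 library or cKOt ZT16 replicate 1 (up to 0.136).

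Casr in TAL had 453 and 498 CPM in Ctrl at ZT4, 566 and 493 in Ctrl at ZT16, 369.9 and 446 in cKOt at ZT4, and 494 and 496 in cKOt at ZT16. Both cKOt libraries at ZT4 lay below the other 6, and the other 3 groups overlapped in part. The log2 difference between time points in cKOt, 0.30 ± 0.13, was not called (adjusted p = 0.466). In bIC Casr had 278 to 480.2 CPM in the Ctrl libraries and 142 to 248 in the cKOt libraries, with no overlap, and a difference over both time points of -0.71 ± 0.18 that was not called (adjusted p = 0.0769). Over its 108 tests in 16 classes edgeR and DESeq2 called 0, and 11 had an unadjusted p under 0.05. The claudins of the same segment showed no call in TAL: Cldn16, which forms the paracellular path for calcium, had 45.9 to 74.2 CPM, and Cldn14, which is known to block it, had 1.70 to 2.56 CPM in 5 libraries and 0.162 to 0.773 in the other 3, all of them at ZT16.

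Calb1, the intracellular calcium carrier, was lower in cKOt at ZT4 and rose from there to ZT16. In CNT it had 699 and 552 CPM in Ctrl at ZT4, 698 and 741 in Ctrl at ZT16, 354 and 374 in cKOt at ZT4, and 963 and 912 in cKOt at ZT16. The cKOt libraries were the lowest of the 8 at ZT4 and the highest at ZT16. From ZT4 to ZT16 Calb1 rose in cKOt by 1.42 ± 0.15, 2.68-fold (adjusted p = 1.1e-05; 0.343% of genes were called in CNT), a call kept in all 16 other settings. Over both genotypes it rose by 0.81 ± 0.11 (adjusted p = 0.000157), kept in all 15. In Ctrl the time difference was 0.19 ± 0.15 (adjusted p = 0.796). The difference between the 2, 1.23 ± 0.21, was called (adjusted p = 0.0166; 0.054% of genes), and was lost without Ctrl ZT4 replicate 1, Ctrl ZT16 replicate 1 or any of the 4 cKOt libraries (up to 0.141). At ZT4 Calb1 was lower in cKOt than in Ctrl by a log2 value of -0.79 ± 0.15 (adjusted p = 0.0142; 0.356% of genes), and at ZT16 the difference was 0.44 ± 0.15 and not called (adjusted p = 0.312). Without Ctrl ZT4 replicate 1, cKOt ZT4 replicate 1 or cKOt ZT4 replicate 2 the call at ZT4 was lost, with adjusted p up to 0.294. The CNT nuclei formed 7 clusters, and cKOt lay below Ctrl at ZT4 with no overlap in 6 of them, all but cluster 48 (486.7 and 716 CPM in cKOt, 840.3 and 671 in Ctrl). In cKOt, ZT4 lay below ZT16 with no overlap in 6 as well, all but cluster 12 (156.5 and 163 CPM at ZT4, 332 and 158 at ZT16).

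In DCT2 Calb1 had 2264 and 1354 CPM in Ctrl at ZT4, 2290.0 and 2693 in Ctrl at ZT16, 930.0 and 994 in cKOt at ZT4, and 1758 and 1561 in cKOt at ZT16. It was lower in cKOt over both time points by a log2 value of -0.74 ± 0.13 (adjusted p = 0.00285; 0.328% of genes were called in DCT2), and at ZT4 by -0.94 ± 0.19 (adjusted p = 0.0169; 0.192%). It rose from ZT4 to ZT16 in cKOt by 0.88 ± 0.19 (adjusted p = 0.03; 0.309%) and over both genotypes by 0.68 ± 0.13 (adjusted p = 0.00314; 1.67%). The interaction in DCT2 was 0.39 ± 0.26 and was not called (adjusted p = 0.942). In cluster 39 Calb1 had 3197, 3251, 3496 and 4467 CPM in the Ctrl libraries and 1875, 2497, 2448 and 2524 in the cKOt libraries. The genotypes did not overlap there, and the difference was -0.64 ± 0.13 (adjusted p = 0.0185; 0.319%). In DCT1 Calb1 had 228 to 694 CPM with no call. With clusters from 50 principal components the DCT2 calls at ZT4 and between time points in cKOt were lost, with log2 values of -0.60 and 0.44. The call at ZT4 was also lost without Ctrl ZT4 replicate 1 or either cKOt ZT4 library (log2 values of -0.48 without the first and -0.92 and -0.98 without the others; adjusted p up to 0.779), and that in cKOt without any library but those of Ctrl at ZT4 (up to 0.379). Between genotypes over both time points the DCT2 call was lost without Ctrl ZT4 replicate 1 or Ctrl ZT16 replicate 2 (up to 0.126), and between time points over both genotypes without Ctrl ZT16 replicate 2 (up to 0.0527). That in cluster 39 was lost without any library but Ctrl ZT16 replicate 1 and cKOt ZT4 replicate 2 (up to 0.129).

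Slc8a1, the exchanger that moves calcium out of the cell into the blood, was called higher at ZT16 in the same segments, in cKOt or over both genotypes. In Ctrl alone edgeR called 0 of its 23 tests between time points, and 8 had an unadjusted p under 0.05. In CNT it had 22470 and 13720 CPM in Ctrl at ZT4, 22290 and 22090 in Ctrl at ZT16, 19380 and 10620 in cKOt at ZT4, and 30740 and 32830 in cKOt at ZT16. In cKOt it rose by 1.14 ± 0.22 on the log2 scale (adjusted p = 0.0157), and over both genotypes by 0.71 ± 0.16 (adjusted p = 0.0193). The CNT clusters differed in level: cluster 50 had 15100 to 69340 CPM over the 8 libraries, and clusters 12, 49 and 51 had 1325 to 4842. Cluster 50 made up 7.53% of the CNT nuclei of cKOt at ZT4 and 16.7% at ZT16. In cKOt, ZT4 lay below ZT16 with no overlap in 5 of the 7 clusters, and the part of the cluster shares in the call was not tested. DESeq2 called none of the 161 tests of Slc8a1 within classes. The call in cKOt was also lost without cKOt ZT4 replicate 2 or either cKOt ZT16 library, with a log2 value as low as 0.76 and adjusted p up to 0.609. In DCT2 it had 59360 to 81520 CPM in the 4 ZT4 libraries and 83780 to 105200 in the 4 ZT16 libraries, with no overlap, a rise of 0.45 ± 0.11 (adjusted p = 0.0277). The calls in aIC (a rise of 1.07 ± 0.23 over both genotypes) and Podo (a fall of 2.03 ± 0.43) came from classes that hold little of the gene. In aIC 7 libraries had 367 to 922 CPM and Ctrl ZT16 replicate 2 had 1598, and in Podo the libraries ranged from 163 to 2506 CPM. The call in Podo turned to a log2 value of 0.54 without doublets and was lost without any library but cKOt ZT4 replicate 2. That in aIC was lost without any but Ctrl ZT16 replicate 1 and cKOt ZT16 replicate 1, with log2 values from 0.39 (without Ctrl ZT16 replicate 2) to 1.42 (without Ctrl ZT16 replicate 1) and adjusted p up to 0.9999, and that in DCT2 without replicate 2 of any group or Ctrl ZT16 replicate 1 (adjusted p up to 0.196). With clusters from 50 principal components the calls in aIC, DCT2 and Podo were lost too. Over both genotypes in CNT it was lost without Ctrl ZT4 replicate 2, cKOt ZT4 replicate 2 or either cKOt ZT16 library (up to 0.544).

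Trpv5, the entry channel, showed no such pattern. In DCT2 it had 158 and 190 CPM in Ctrl at ZT4, 169 and 149.5 in Ctrl at ZT16, 175 and 279 in cKOt at ZT4, and 137 and 171 in cKOt at ZT16, and the difference in cKOt was -0.46 ± 0.22 (adjusted p = 0.55). In CNT it had 103 to 162 CPM, and the time difference in cKOt, where Calb1 and Slc8a1 rose, was -0.11 ± 0.19 (adjusted p = 0.925). Neither tool called any of its 47 tests in 7 classes, and 1 had an unadjusted p under 0.05. With 692 UMIs in DCT2 and 1298 in CNT over 8 libraries, Trpv5 had far fewer counts than Slc8a1, with 336121 and 236833. Atp2b1, the pump, was not called in any of 161 tests by either tool, and 5 had an unadjusted p under 0.05. In DCT2 it had 105 to 198 CPM and in PCT 119 to 246 CPM.

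**Figure D5:**
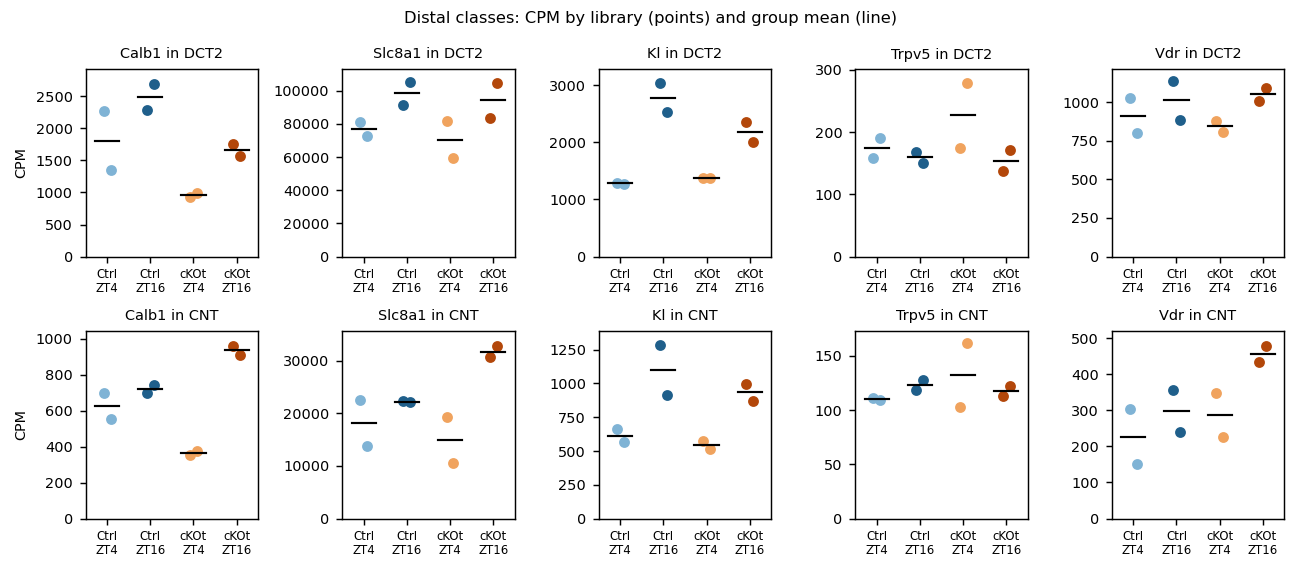
CPM of Calb1, Slc8a1, Kl, Trpv5 and Vdr in DCT2 (top) and CNT (bottom), with a point for each library and a line for the mean of each group. Calb1 in CNT is at 354 and 374 CPM in cKOt at ZT4 and at 963 and 912 in cKOt at ZT16, while Kl is higher at ZT16 in both genotypes and Trpv5 in DCT2 is highest in cKOt ZT4 replicate 2, at 279 CPM.

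Of the other 13 genes of calcium handling (Trpv6, S100g, Atp2b4, Atp2b2, Slc8a3, Cldn2, Cldn14, Cldn16, Cldn19, Gna11, Gnaq, S100a10 and Sgk1), 11 of 1195 tests within classes were called, 9 rises and 2 falls, with a median log2 difference of 0.05. By comparison, 3 of 163 tests were called between time points in Ctrl (0.336% over all genes), 2 of 168 in cKOt (0.134%), 0 of 164 between genotypes at ZT4 (0.295%; 14 at an unadjusted p under 0.05, 2 by DESeq2), 1 of 166 at ZT16 (0.17%), 4 of 178 between time points over both genotypes (0.856%), 1 of 178 between genotypes over both time points (0.601%) and 0 of 178 in the interaction (0.0267%; 11 at an unadjusted p under 0.05, 2 by DESeq2). In whole-kidney sums edgeR called 0 of 91; 16 had an unadjusted p under 0.05, and DESeq2 called 3, all of Slc8a3. Atp2b4, a calcium pump of the distal tubule, had 69.4 and 67.9 CPM in CNT of Ctrl at ZT4, 100.0 and 91.3 in Ctrl at ZT16, 111 and 76.5 in cKOt at ZT4, and 195 and 146 in cKOt at ZT16. It rose in cKOt from ZT4 to ZT16 by 0.94 ± 0.19 (adjusted p = 0.0268) and was higher in cKOt than in Ctrl at ZT16 by 0.89 ± 0.19 (adjusted p = 0.0367). DESeq2 made neither call; the first was also lost without cKOt ZT4 replicate 2 or cKOt ZT16 replicate 1 (up to 0.602), and the second without either Ctrl ZT16 library or cKOt ZT16 replicate 1 (up to 0.525). Atp2b2 rose in DCT1 of Ctrl from 36.6 and 36.3 CPM to 79.6 and 89.0 (adjusted p = 0.0107), a call lost without either Ctrl ZT4 library or Ctrl ZT16 replicate 2 (up to 0.113). Over both genotypes Atp2b2 rose there by 0.93 ± 0.17 (adjusted p = 0.00459), and this call was kept in all 15 other settings. S100g, the small calbindin, had 144 to 345 CPM in DCT2 and 88.4 to 182 in CNT and was not called in either. Trpv6, the channel related to Trpv5, had 8.90 to 15.0 CPM in CNT and no call. Sgk1, a kinase that acts on several transporters, rose at ZT16 in Ctrl in PST-A by 2.28 ± 0.31 (adjusted p = 0.024) and fell in CNT by 1.51 ± 0.32 (adjusted p = 0.031), and it rose in Vasc of cKOt by 0.85 ± 0.14 (adjusted p = 0.0281). The call in PST-A was lost without any of the 4 Ctrl libraries (up to 0.206), that in CNT under DESeq2 and without replicate 1 of either Ctrl group (up to 1.0), and that in Vasc with only the 2 groups compared and without cKOt ZT4 replicate 1 or either cKOt ZT16 library (up to 0.266). Over both genotypes Sgk1 rose in Vasc by 0.74 ± 0.098 (adjusted p = 0.00179), a call kept in all 15 other settings. Over the 16154 genes tested in whole-kidney sums between time points in Ctrl the median log2 difference was near 0 (-0.003158), and that of the 10 genes was 0.04.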

How the data were processed

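The authors isolated and sorted nuclei from flash-frozen kidneys and prepared 10x Genomics 3' libraries. Per the labels' processing notes, reads were handled with bcl2fastq 2.20, Cell Ranger 7.1.0 and Seurat 5 on GRCm39, while the methods name an mm10 reference. The deposited values are UMI counts for each gene and barcode, which the authors did not normalize.

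Of 82784 barcodes, 81391 passed the filters used here (a minimum of 500 genes and of 800 UMIs, and a mitochondrial share of no more than 2%). Nuclei were clustered by the Leiden method of igraph 0.11.9 on 2000 variable protein-coding genes and 1000 principal components, without the 10 genes and both lists. Clusters were named from fixed markers; the rule for naming, the splitting of mixed clusters and the split of PST were set after the clusters were seen. Scrublet, run through scanpy 1.11.5, called 4336 nuclei (5.33%) as doublets, which were kept. Precision is set by 36548873 to 54500820 UMIs in each library, and by the UMIs of a gene in a class.

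Counts summed for each library were fitted with edgeR 4.0.16 (quasi-likelihood, TMM, R 4.3.3) in 1 model of 4 groups, for protein-coding genes reaching 5 counts in each replicate of 1 or more compared groups. Of 32285 listed genes, 31674 were matched to the reference for their type; the 611 unmatched held 1.29% of UMIs. p-values were adjusted (Benjamini-Hochberg) within each class and comparison. Scripts were tested on simulated data. Alternatives were DESeq2 1.42.0, no TMM, no filter, all genes, a replicate block, only the 2 groups compared, no doublets, 50 principal components, and each library left out. Promoters were matched by symbol to RefSeq.

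The 10 genes are all described; from the 2 lists, called genes are named, and uncalled ones where they partner 1 of the 10. For each of the 10, the closest genes are those with the highest correlation over the named classes. The genes and lists were chosen with earlier results of these data known.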

Additional observations from a re-analysis of the deposited data

Results flagged for a closer look

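Calb1 in CNT was singled out because its time effect differed between the genotypes by a test of that difference. It rose from 354 and 374 CPM at ZT4 to 963 and 912 CPM at ZT16 in cKOt, while Ctrl went from 699 and 552 to 698 and 741 CPM. The difference of the time effects was 1.23 ± 0.21 on the log2 scale (edgeR's quasi-likelihood test, adjusted p = 0.0166). The call was kept in 9 of 15 other settings and lost without Ctrl ZT4 replicate 1, Ctrl ZT16 replicate 1 or any of the 4 cKOt libraries, with log2 values between 1.04 and 1.39 and adjusted p up to 0.141.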

How the results depend on the processing

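Of the 70 whole-kidney tests of the 10 genes edgeR called 2; DESeq2 called 8, no filter on low counts gave 4, and leaving out 1 library gave 0 to 2. Within classes edgeR called 27; clusters from 50 principal components gave 17, no filter gave 123, and leaving out 1 library gave 13 to 38. Where a library is left out, the lone one of its group is assumed to vary like the other groups. Without a filter, 360889 tests were made in each comparison of the 23 classes, up from 205276 to 221217. Clusters from 50 principal components left no cluster 39, so the call there could not be made, and 194075 to 207463 tests were made in each comparison. The cause of the other changes was not tested. The replicate numbers were not used to pair the libraries. Deviations of same-numbered libraries from their group means correlated between -0.24 and 0.38 over the 6 pairs of groups. Between genotypes the values were 0.38 at ZT4 and 0.37 at ZT16. The replicate block gave 0 calls in whole-kidney sums and 33 within classes. There it lost those of Vdr in PCT at ZT4 and of Cubn in aIC at ZT4 and in Myel in Ctrl. Of the alternatives for single calls of the 10 genes and both lists, 597 kept direction and side of the threshold, 235 kept the direction but not the call, and 1 reversed: Slc8a1 in Podo over both genotypes, at -2.03, became 0.5435 without doublets. Among the 22 named classes, the class with the highest level was the same for 9 genes without Ctrl ZT16 replicate 1 and with 50 principal components. In the first setting Cyp27b1 was highest in BC, which held 0.481% of its UMIs, and in the second Lrp2 was highest in PST-A. In the other settings run, the class was the same for all 10. Calb1 was highest in DCT2 here because cluster 39 is left out. Over all genes in whole-kidney sums, edgeR and DESeq2 called 23 and 234 between time points in Ctrl, 0 and 168 in cKOt, 72 and 344 between genotypes at ZT4, 28 and 171 at ZT16, 89 and 512 between time points over both genotypes, 155 and 430 between genotypes over both time points, and 3 and 48 in the interaction. In the same order of comparisons no filter gave 51, 10, 127, 64, 213, 233 and 10, all genes in 1 fit gave 44, 2, 94, 30, 192, 213 and 3, and the replicate block gave 15, 2, 53, 30, 78, 148 and 0. With only the 2 groups compared, 24, 0, 18 and 21 genes were called in the first 4 comparisons.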
